A study of Mus musculus with 12 samples.

Results

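The transcripts described here are those of 9 genes, selected on a large measured difference between embryonic stem cells (ESCs) with medium and with high expression of Esrrb. They are Serpinb6c, Mras, Msc, Dnajc6, Kit, Pga5 and Notch4, which were lower in the medium cells, and Mmd2 and Zfp365, which were higher. They stand among 18524 genes named on the arrays, and 11089 features (8487 named genes and 2602 probes without a name) passed the filter on dim probes. All 9 genes passed that filter, through 11 of the 17 probes annotated to them.

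The study hybridised RNA of 4 groups to Illumina MouseWG-6 bead arrays, with 3 arrays a group and 12 in all. EpiSC were epiblast stem cells of the TNG Esrrb-2a-TdTomato line, grown in N2B27 with Activin and FGF. The paper describes these EpiSC as embryo-derived (late bud stage) and mentions no sorting of them. It gives TNG cells as Nanog+/−, with a GFP reporter in 1 Nanog allele, and the line also has the red Esrrb reporter. Each comparison with EpiSC thus also compares Nanog genotypes, lines and media. EsrrbNeg, EsrrbMed and EsrrbHi were E14Tg2a ESCs of 1 clonal line (Esrrb-2a-GFPd-IBIH), with a destabilised GFP linked to Esrrb, plated at 3000 cells per cm2 and cultured for 3 days in serum and LIF. From these cultures SSEA-1 positive cells were sorted by GFP into negative, medium and high fractions, and 100 ng of RNA was labelled per array. Chip 1 carried replicates 1 and 2 of the 3 ESC fractions, and chip 2 carried replicate 3 of each with all EpiSC arrays. The study describes the microarray measurements of the sorted fractions as independent experiments, while for the EpiSC arrays the sources used here do not say what was separate. The p-values rest on the spread of arrays around their group and chip effects, pooled over the 4 groups and drawn towards that of other features.

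Esrrb encodes an orphan nuclear receptor that works with Nanog, Oct4 and Sox2 in naive mouse pluripotency. In serum and LIF its level varies from cell to cell, and cells that lose it tend to leave the self-renewing state. EpiSC are the cultured counterpart of the postimplantation epiblast, a later stage of pluripotency in which Esrrb is low. The 9 genes do not form a pathway. They encode a protease inhibitor, a RAS-family GTPase, a transcriptional repressor, a clathrin-uncoating chaperone, 2 cell surface receptors, a pepsinogen, a membrane protein and a zinc finger protein.

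Promoter sequences of 7 of the 9 genes were matched by symbol in a RefSeq table (GRCm38.p6), in 9 entries since Dnajc6 and Kit each have more than 1 listed start. The 250 bases before each start were searched on both strands for 13 strings. The extended ESRRB half-site TCAAGGTCA and the shorter AAGGTCA and AGGTCA were in none of the 7 genes, and in 0.387%, 4.08% and 14.0% of all 32851 promoter entries. These 3 strings overlap each other. The string GGGTGG, the core of the CACCC box that KLF factors bind, was in 5 of the 7 genes and in 28.1% of all entries (30.6% of genes). Windows of 60 bases around it are shown because 4 of these genes moved together while the remaining gene, Mmd2, did not. Each is written 5′ to 3′ on the strand of its gene, with GGGTGG or its reverse complement CCACCC in capitals.
Serpinb6c: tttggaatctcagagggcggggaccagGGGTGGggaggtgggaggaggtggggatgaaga
Dnajc6: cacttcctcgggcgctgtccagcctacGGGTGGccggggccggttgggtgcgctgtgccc
Kit: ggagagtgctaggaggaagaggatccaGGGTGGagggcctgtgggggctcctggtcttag
Notch4: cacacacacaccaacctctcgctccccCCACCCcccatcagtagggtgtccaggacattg
Mmd2: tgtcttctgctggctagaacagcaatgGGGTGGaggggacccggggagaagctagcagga
The Serpinb6c window is chr13:33905225-33905284 on the minus strand, with the string starting 66 bases before the start. For Dnajc6 it is chr4:101550424-101550483 on the plus strand, 143 bases before the downstream start of 2. For Kit it is chr5:75574752-75574811 on the plus strand, 208 bases before the first listed start. The Notch4 window is chr17:34564229-34564288 on the plus strand, with CCACCC 39 bases before the start and a further copy, outside the window, 143 bases before it. The Mmd2 window is chr5:142608883-142608942 on the minus strand, 163 bases before the start. Mras had the E-box CAGCTG (13.0% of entries) 131 bases before its start, and Zfp365 had TATAAA (12.4%) and CACGTG (6.02%) at 185 and 41 bases. The other strings, CACCTG, GGGTGTGG, ATTTGCAT, TGACGTCA, TTCNNNGAA and TTCCNGGAA, were in none of the 7. Such matches are a description of letters, not of binding.

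Median intensity ran between 82.9 and 97.9 over the arrays, and 13333 to 15393 of 45281 probes per array were detected (detection value of at most 0.01). The arrays of replicate 1 in EsrrbMed and EsrrbNeg were the brightest at the upper end, so raw intensities are comparable only roughly between arrays. Normalized values are log2 intensities after background correction and quantile normalization. Esrrb followed the sort, at normalized log2 values of 6.33 ± 0.29 in EpiSC, 5.64 ± 0.15 in EsrrbNeg, 11.27 ± 0.08 in EsrrbMed and 11.95 ± 0.20 in EsrrbHi (mean ± SD, n = 3 each). Of 11 naive pluripotency markers, Esrrb among them, 10 were tested and all 10 were called lower in EsrrbNeg against EsrrbMed, with summed normalized intensities over the list of 1705 to 2606 in EpiSC, 2801 to 3161 in EsrrbNeg, 10487 to 11679 in EsrrbMed and 14081 to 15123 in EsrrbHi. The sum was thus lower in EpiSC than in EsrrbNeg, whereas Esrrb itself was higher in EpiSC. Primed epiblast markers (9 genes) summed to 9550 to 10075 in EpiSC, 11065 to 12143 in EsrrbNeg, 6730 to 7841 in EsrrbMed and 5074 to 5719 in EsrrbHi. Of these 9, 6 were tested, with 3 called higher and none lower in EsrrbNeg against EsrrbMed. Sox3, Cdh2 and Foxd3 were undetected in all 4 groups. In sorted fractions, fewer cells that express a gene and less of its RNA per cell cannot be told apart.

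The difference between EsrrbMed and EsrrbHi chose the 9 genes and is given as a description. The log2 fold changes of EsrrbMed against EsrrbHi were −1.28 ± 0.12 for Serpinb6c, −1.19 ± 0.21 for Mras, −1.14 ± 0.14 for Msc, −1.11 ± 0.12 for Dnajc6, −1.11 ± 0.15 for Kit, −1.07 ± 0.19 for Pga5 and −1.03 ± 0.14 for Notch4 (± SE of the fit). Mmd2 and Zfp365 ran the other way, at 1.02 ± 0.16 and 0.87 ± 0.17. The 7 lower genes were the 6 largest differences of that sign among all features and the 9th. Itga9 at −1.07 and an unnamed probe at −1.06 lay between Pga5 and Notch4, and Shisa2 at −1.03 came next after Notch4. Mmd2 was 5th and Zfp365 12th among the positive differences, behind Ddit4 (1.21) and Pou3f1 (1.18). All 9 had groups that did not overlap. Over all features 1.18% were called in this comparison, 0.703% lower and 0.478% higher, and 19.6% had groups that did not overlap. A call means an adjusted p of at most 0.05 and at least a 1.5-fold change.

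**Figure D1:**
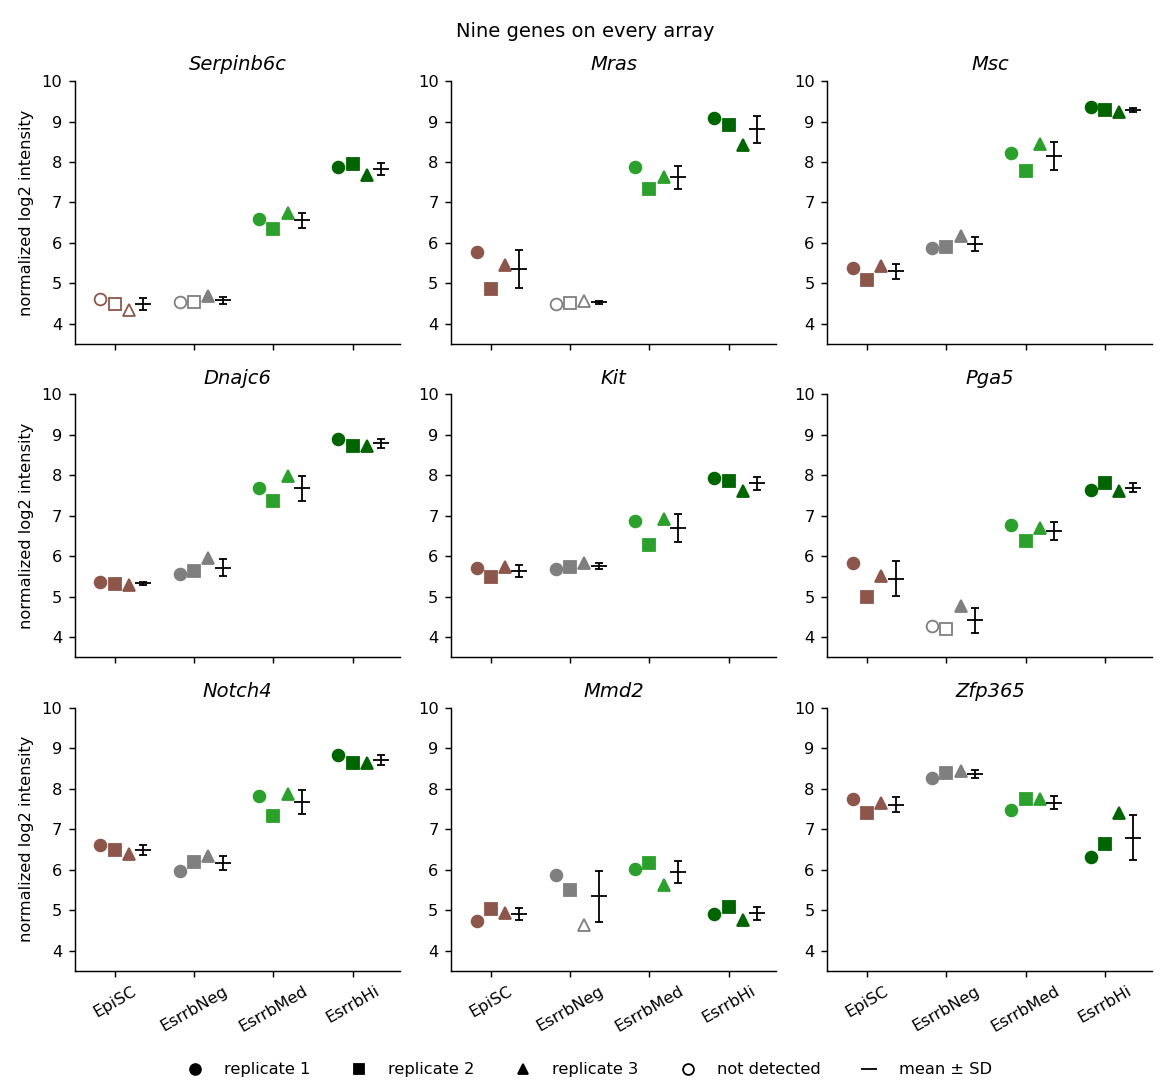
Normalized log2 intensity of each of the 9 genes (y axis) on every array, by group, with replicates as symbols, undetected values as open symbols, and the mean and SD (n = 3) as a black bar. In 7 genes EsrrbMed lies between EsrrbNeg and EsrrbHi on every array, in Mmd2 EsrrbMed has the highest mean, and in Zfp365 EsrrbNeg is highest.

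The next comparison, EsrrbNeg against EsrrbMed, asks what each gene did once the Esrrb reporter was lost. It shares the EsrrbMed arrays with the choice of the genes, and Serpinb6c passed the filter on dim probes only through EsrrbMed and EsrrbHi. For Mmd2, chosen for high EsrrbMed values, this sharing favours a fall. All 9 genes were called: 8 were lower in EsrrbNeg, among them the 7 that were already lower in EsrrbMed, and Zfp365 was higher. Over all features 11.9% were called, 6.17% lower and 5.73% higher. The groups did not overlap in 8 of the 9, with Mmd2 as the exception, and in 38.1% of all features. The median log2 fold change of the 9 was −1.96, against 0.01 over all features. No EpiSC or EsrrbNeg array entered the choice, although the EsrrbMed and EsrrbHi arrays help to estimate the chip term and the spread of the model. There were 4 of the 9 called in EpiSC against EsrrbNeg, Mras and Pga5 higher and Msc and Zfp365 lower. The background was 21.0%, with 12.1% higher and 8.96% lower, and groups did not overlap in 6 of the 9 and in 57.1% of all features. None of these 4 was called after median scaling, which moved the median of all features to 0.18, against −0.01 with quantiles. With an offset of 50 in place of 16 only Zfp365 was called. Fitted on the arrays of EpiSC and EsrrbNeg alone, 3 of the 8 members that then passed the filter were called, 0 higher and 3 lower (Msc, Zfp365 and Dnajc6), with Mras at 0.80 (adjusted p = 0.0896) and Pga5 at 0.68 (adjusted p = 0.114). Fibroblast markers (9 genes) summed to 496 to 756 in EpiSC, 256 to 343 in EsrrbNeg, 234 to 251 in EsrrbMed and 217 to 233 in EsrrbHi, and 2 of the 4 tested were called higher in EpiSC against EsrrbNeg. Col1a2, Postn and Pdgfrb were undetected in all 4 groups. All arrays of a group detected 4 of the 9 in EpiSC and 2 in each other group, and their part in the EpiSC values was not tested.

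**Figure D2:**
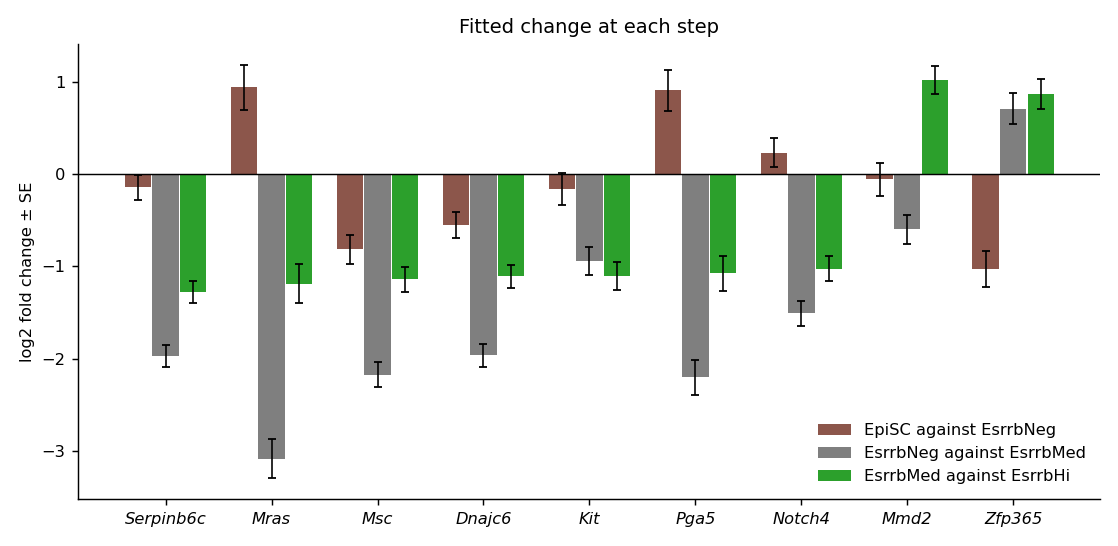
Fitted log2 fold change ± SE (y axis) of each gene in EpiSC against EsrrbNeg, EsrrbNeg against EsrrbMed and EsrrbMed against EsrrbHi. For 6 of the 7 genes lower in EsrrbMed the EsrrbNeg bar is the longest, Kit being the exception, and Mmd2 has bars of opposite sign at the last 2 steps.

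Kit (probe ILMN_1246876) encodes the receptor tyrosine kinase for stem cell factor, known for its role in germ cells, melanocytes and blood progenitors. Its raw intensities on arrays 1, 2 and 3 were 120.3, 107 and 114 in EpiSC, 154, 107 and 118 in EsrrbNeg, 281, 136 and 149 in EsrrbMed and 372, 323 and 194 in EsrrbHi. On the normalized scale Kit averaged 5.63 ± 0.14 in EpiSC, 5.76 ± 0.07 in EsrrbNeg, 6.70 ± 0.35 in EsrrbMed and 7.80 ± 0.17 in EsrrbHi (log2, SD, n = 3 each). The 3 ESC fractions did not overlap, while EpiSC and EsrrbNeg did. Kit fell in EsrrbNeg against EsrrbMed, with a log2 fold change of −0.94 ± 0.15 (adjusted p = 0.000418, limma with Benjamini-Hochberg adjustment). It was the gene of the 7 with the smallest change at this step, and the call was lost after median scaling (−0.93, adjusted p = 0.154) and, for its size, without background correction (−0.48) and in the authors' log2 table (−0.49). EpiSC and EsrrbNeg gave −0.16 ± 0.17 (adjusted p = 0.483). On the log2 scale 54.2% of the EsrrbNeg against EsrrbHi difference of −2.05 was present in EsrrbMed. The other 2 Kit probes, annotated to cDNA clones, were detected on none of the 12 arrays.

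Notch4 (probe ILMN_1220697) encodes a Notch receptor best known from endothelium. Its intensities were 164, 142 and 139 in EpiSC, 173, 119.9 and 136 in EsrrbNeg, 479, 206 and 222 in EsrrbMed and 640.5, 511 and 328 in EsrrbHi. Means of the normalized values were 6.49 ± 0.12 in EpiSC, 6.16 ± 0.18 in EsrrbNeg, 7.67 ± 0.30 in EsrrbMed and 8.70 ± 0.12 in EsrrbHi. Every EsrrbNeg array was below every EsrrbMed array, and the change was −1.51 ± 0.14 (adjusted p = 3.46e-06). All 3 EpiSC arrays lay above the EsrrbNeg arrays, but the fitted difference was only 0.23 ± 0.16 (adjusted p = 0.249). Of the EsrrbNeg against EsrrbHi difference of −2.54, 40.5% was present in EsrrbMed. A further Notch4 probe passed detection on 2 of 12 arrays. Endothelial markers (8 genes) summed to 297 to 417 in EpiSC, 293 to 299.8 in EsrrbNeg, 349 to 354 in EsrrbMed and 320.4 to 338 in EsrrbHi, and 1 of 5 tested was called lower in EsrrbNeg against EsrrbMed. All arrays of a group detected 2 of the 8 in EpiSC, 4 in EsrrbNeg, 4 in EsrrbMed and 3 in EsrrbHi, while Cdh5 and Tie1 were undetected in all 4 groups. The part of these markers in the Notch4 values was not tested.

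Mras (probe ILMN_2451441) encodes a RAS-family GTPase that, with Shoc2 and a PP1 phosphatase, activates RAF kinases. Its intensities were 123, 94.3 and 107 in EpiSC, 103, 86.8 and 91.2 in EsrrbNeg, 498, 207 and 199 in EsrrbMed and 745, 603 and 294 in EsrrbHi. In normalized values it averaged 5.37 ± 0.47 in EpiSC, 4.53 ± 0.04 in EsrrbNeg, 7.62 ± 0.28 in EsrrbMed and 8.81 ± 0.34 in EsrrbHi. Mras was not detected on any EsrrbNeg array, and was at least 7.90-fold lower there than in EsrrbMed (fitted log2 fold change −3.09 ± 0.21, adjusted p = 3.44e-07), the largest change of the 9. Against the same floor it was at least 18.0-fold lower in EsrrbNeg than in EsrrbHi. These bounds set the detected group's mean against a floor, the dimmest probe still detected on each array. They hold only for the probe and processing given. Over the alternative runs the fitted Mras change in EsrrbNeg against EsrrbMed ran from −3.28 to −1.48. All 3 EpiSC arrays detected Mras, at least 1.66-fold above EsrrbNeg (0.94 ± 0.24, adjusted p = 0.00718). Mras has another kept probe, for which the bounds were smaller, at 4.04-fold against EsrrbMed and 10.8-fold against EsrrbHi. This probe also fell in EsrrbNeg against EsrrbMed (−2.47 ± 0.15, adjusted p = 1.20e-07), but gave 0.39 ± 0.18 in EpiSC against EsrrbNeg (adjusted p = 0.0937). Within chip 2 alone the EpiSC difference of the first probe was 0.80 (adjusted p = 0.169).

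Dnajc6 (probe ILMN_1230224) encodes auxilin, which recruits Hsc70 to strip clathrin from coated vesicles. It had intensities of 111, 103 and 103 in EpiSC, 147, 104 and 122 in EsrrbNeg, 444, 209.6 and 236 in EsrrbMed and 668, 540.0 and 349 in EsrrbHi. The normalized means were 5.33 ± 0.04 in EpiSC, 5.72 ± 0.21 in EsrrbNeg, 7.68 ± 0.32 in EsrrbMed and 8.79 ± 0.11 in EsrrbHi. EpiSC were lowest, then EsrrbNeg, EsrrbMed and EsrrbHi, with no overlap between neighbouring groups. EsrrbNeg was lower than EsrrbMed, with a log2 fold change of −1.96 ± 0.12 (adjusted p = 1.74e-07), and a further Dnajc6 probe gave −1.89 ± 0.16. In EpiSC against EsrrbNeg the change was −0.55 ± 0.14 (adjusted p = 0.00730), short of 1.5-fold. The other probe passed that limit at −0.65 ± 0.19 (adjusted p = 0.0144), and so did the first without EsrrbHi replicate 3 (−0.67) and within chip 2 alone (−0.63). A probe left out by the filter was detected on 0 of 12 arrays.

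Msc (probe ILMN_2769777) encodes musculin, a basic helix-loop-helix (bHLH) repressor known from muscle and lymphoid cells. Its intensities were 111, 98.5 and 107 in EpiSC, 166, 111 and 129.5 in EsrrbNeg, 606, 259.7 and 298 in EsrrbMed and 887, 744 and 466 in EsrrbHi. Normalized, Msc averaged 5.30 ± 0.18 in EpiSC, 5.97 ± 0.16 in EsrrbNeg, 8.15 ± 0.34 in EsrrbMed and 9.29 ± 0.06 in EsrrbHi. All 12 arrays detected it, and the 4 groups were separate from each other. The step in EsrrbNeg against EsrrbMed was −2.18 ± 0.14 (adjusted p = 1.74e-07). Msc was lower again in EpiSC against EsrrbNeg, at −0.81 ± 0.16 (adjusted p = 0.00116), and at −0.86 within chip 2 (adjusted p = 0.0358). The EpiSC call was lost with an offset of 50 (−0.49) or after median scaling (−0.50, adjusted p = 0.557).

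Serpinb6c (probe ILMN_2627952) encodes an intracellular protease inhibitor of serpin clade B, whose genes lie in clusters of close copies. Whether its single probe separates these copies was not tested. Its intensities were 93.7, 89.1 and 87.5 in EpiSC, 104, 86.9 and 92.8 in EsrrbNeg, 241, 139 and 139.7 in EsrrbMed and 359.7, 342 and 200.0 in EsrrbHi. As normalized means Serpinb6c had 4.48 ± 0.14 in EpiSC, 4.58 ± 0.08 in EsrrbNeg, 6.55 ± 0.19 in EsrrbMed and 7.83 ± 0.14 in EsrrbHi. It was detected on 0 of 3 EpiSC and 1 of 3 EsrrbNeg arrays, against 3 of 3 in both EsrrbMed and EsrrbHi. Serpinb6c thus passed the filter only through EsrrbMed and EsrrbHi, where it was high, which favours a fall in EsrrbNeg. The fall in EsrrbNeg against EsrrbMed was −1.97 ± 0.12 (adjusted p = 1.22e-07). EpiSC and EsrrbNeg, both near background, gave −0.14 ± 0.14 (adjusted p = 0.426).

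Pga5 (probe ILMN_2625262) encodes a pepsinogen, the inactive form of the stomach protease pepsin. Its intensities were 125, 96.6 and 108 in EpiSC, 94.4, 81.9 and 94.0 in EsrrbNeg, 266, 139.8 and 139 in EsrrbMed and 315, 315 and 195 in EsrrbHi. The normalized means were 5.45 ± 0.43 in EpiSC, 4.42 ± 0.30 in EsrrbNeg, 6.62 ± 0.22 in EsrrbMed and 7.69 ± 0.11 in EsrrbHi for Pga5. Only 1 EsrrbNeg array detected it, while all arrays of the other groups did. Its log2 fold change was −2.20 ± 0.19 in EsrrbNeg against EsrrbMed (adjusted p = 2.44e-06) and 0.91 ± 0.22 in EpiSC against EsrrbNeg (adjusted p = 0.00471), where the groups did not overlap. Within chip 2, which holds 1 EsrrbNeg array, the EpiSC difference was 0.68 (adjusted p = 0.194). Mras and Pga5 were thus the 2 genes of the 7 with an EpiSC level called above EsrrbNeg. Both remained well below EsrrbHi in EpiSC, at −3.33 ± 0.24 for Mras and −2.37 ± 0.22 for Pga5.

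Zfp365 (probe ILMN_1217442) encodes a zinc finger protein that binds Disc1 in neurons and takes part in genome stability. Its intensities were 274, 206 and 235 in EpiSC, 568, 301 and 352 in EsrrbNeg, 392, 254 and 209 in EsrrbMed and 166, 177 and 177 in EsrrbHi. On the normalized scale it averaged 7.60 ± 0.18 in EpiSC, 8.36 ± 0.10 in EsrrbNeg, 7.65 ± 0.15 in EsrrbMed and 6.78 ± 0.56 in EsrrbHi. Arrays of replicate 1 and 2 in EsrrbHi were the lowest, and EsrrbHi replicate 3 was at 7.40, close to the EsrrbMed value of 7.48 for replicate 1. Zfp365 rose in EsrrbNeg against EsrrbMed by 0.71 ± 0.17 (adjusted p = 0.00576). Without EsrrbMed replicate 3 this was 0.58 (adjusted p = 0.0518) and not called, nor was it after median scaling (0.67, adjusted p = 0.316) or, for its size, without background correction (0.55) and in the authors' log2 table (0.56). On chip 2 alone it was 0.70 (adjusted p = 0.122). In EpiSC against EsrrbNeg the log2 fold change was −1.03 ± 0.19 (adjusted p = 0.000921), and −0.85 within chip 2 (adjusted p = 0.0362). The mean in EpiSC was close to that in EsrrbMed, so the highest level of Zfp365 was in EsrrbNeg. The 2 other Zfp365 probes were each detected on 1 of 12 arrays.

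Mmd2 (probe ILMN_1252636) encodes a multi-pass membrane protein related to the adiponectin receptors (PAQR family). It was dim, with intensities of 95.8, 97.2 and 96.4 in EpiSC, 165, 102 and 92.2 in EsrrbNeg, 185, 130.3 and 103 in EsrrbMed and 104, 105 and 88.1 in EsrrbHi. The normalized means were 4.89 ± 0.15 in EpiSC, 5.34 ± 0.63 in EsrrbNeg, 5.94 ± 0.28 in EsrrbMed and 4.92 ± 0.16 in EsrrbHi, highest in EsrrbMed. Mmd2 was chosen for EsrrbMed values above EsrrbHi, and the same EsrrbMed arrays are the reference for EsrrbNeg. That choice favours both a peak in EsrrbMed and a fall in EsrrbNeg. The fall in EsrrbNeg against EsrrbMed was −0.60 ± 0.16 (adjusted p = 0.0107), with groups that overlapped, since EsrrbNeg replicate 1 stood at 5.87 and EsrrbMed replicate 3 at 5.63. Without EsrrbNeg replicate 3, the array on which Mmd2 was undetected, it was −0.37 (adjusted p = 0.0815), and without EsrrbMed replicate 3 it was −0.54 (adjusted p = 0.0642). Leaving out the filter on dim probes also ended the call (adjusted p = 0.0503), as did leaving out the chip term (adjusted p = 0.0913) and median scaling (−0.55, adjusted p = 0.523), and an offset of 50 took the change to −0.33. EpiSC and EsrrbNeg gave −0.06 ± 0.18 (adjusted p = 0.822) in the fit, which adjusts for chip, beside unadjusted means of 4.89 and 5.34.

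Arrays of the same number from the 3 ESC fractions were then compared pair by pair. The difference between EsrrbMed and EsrrbHi chose the genes, so its direction in these pairs, normalized or raw, is a description and no replication. All 7 lower genes were lower in EsrrbMed than in EsrrbHi in each of the 3 pairs, with medians of −1.13, −1.50 and −0.79 for replicates 1, 2 and 3 (0.02, 0.01 and 0.01 over all features). Replicate 3, on chip 2, gave the smallest difference for 6 of them and replicate 1 for Pga5 (−0.86). In EsrrbNeg minus EsrrbMed the medians of the 7 were −2.13, −1.82 and −2.03. There replicate 2, with the largest first difference, had the smallest second difference for 6 of the 7 genes, and Pga5 had it in replicate 3 (−1.95). Kit showed this most, at −1.58 and then −0.55 in replicate 2, beside −1.05 and −1.19 in replicate 1. Both differences hold the same EsrrbMed array with opposite sign, so a low value on that array widens the first and narrows the second. Zfp365 differed between EsrrbMed and EsrrbHi by 1.16, 1.10 and 0.35, and between EsrrbNeg and EsrrbMed by 0.78, 0.66 and 0.70. For Mmd2 the first differences were 1.12, 1.08 and 0.87, and the second −0.15, −0.66 and −0.99. Raw intensity had the same direction in all 27 EsrrbMed and EsrrbHi pairs, from 34.3% (Mras, replicate 2) to 84.5% (Pga5, replicate 1) of EsrrbHi for the 7, and from 117% to 237% for Mmd2 and Zfp365.

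**Figure D3:**
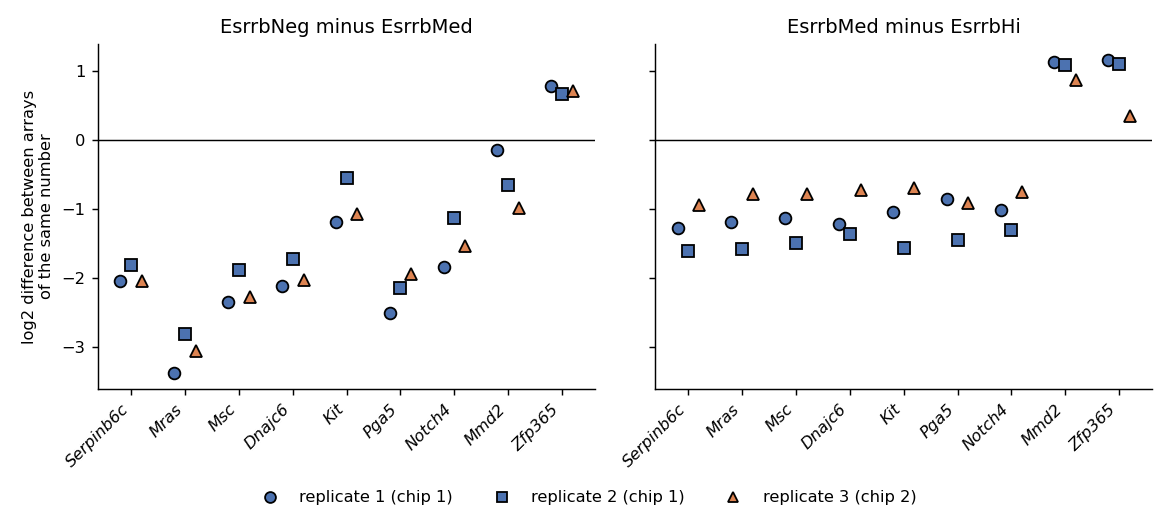
Log2 difference of normalized values (y axis) between arrays of the same replicate number for each gene, EsrrbNeg minus EsrrbMed and EsrrbMed minus EsrrbHi, coloured by chip. In EsrrbMed minus EsrrbHi all 3 pairs of the 7 lower genes lie between −1.61 and −0.70, and those of Mmd2 and Zfp365 lie above 0.

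For the 7 lower genes the share of the EsrrbNeg against EsrrbHi difference present in EsrrbMed, on the log2 scale, was lowest in Mras (27.8%) and Pga5 (32.8%) and highest in Kit (54.2%). Msc had 34.4%, Dnajc6 36.1%, Serpinb6c 39.3% and Notch4 40.5%. For Serpinb6c, Mras and Pga5 the EsrrbNeg level is at or near the detection floor, so their shares depend on it. In Zfp365 the share was 55.0%, and in Mmd2 the EsrrbNeg against EsrrbHi difference was 0.42 ± 0.16, smaller than that of EsrrbMed. These comparisons share arrays with the choice of genes and are given as values. EpiSC against EsrrbHi, which shares the EsrrbHi arrays, gave −4.13 for Msc, −3.62 for Dnajc6, −2.21 for Kit and −2.30 for Notch4. Serpinb6c, undetected on all EpiSC arrays, was at least 8.95-fold lower there than in EsrrbHi. Mmd2 and Zfp365 stood at 0.37 ± 0.18 and 0.55 ± 0.19 in EpiSC against EsrrbHi, with overlapping groups. These are fitted values adjusted for chip, and all EpiSC arrays were on chip 2. The unadjusted means of Mmd2 were nearly equal, at 4.89 in EpiSC and 4.92 in EsrrbHi. Those of Zfp365 were 7.60 and 6.78.

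Over the 12 arrays the 21 pairs among the 7 genes correlated at Pearson r = 0.892 to 0.997. These genes were all chosen on the same contrast, and the arrays come from 4 groups, so the values are a description. Mmd2 correlated with Zfp365 at 0.219, with the 7 at −0.100 to 0.117, and Zfp365 with the 7 at −0.820 to −0.652. Genes with the pattern most like each member were sought over all named genes, as a description over 12 arrays from 4 groups. Dnajc6 was nearest to Tbx3 (r = 0.997), a T-box factor of naive pluripotency, and to Cdhr1 (0.996). Serpinb6c was nearest to Mapt (0.994), which encodes the microtubule protein tau, and again to Tbx3 (0.993). Msc had Cobl and Alpk3 (both at 0.993 or 0.994), and Kit had Zfp607b (0.990) and Tmem231 (0.978). Pga5 was nearest to Pif1 (0.986), a DNA helicase, and Gli2 (0.985), a Hedgehog effector. Gli2 also had the low point in EsrrbNeg, at −2.57 ± 0.17 against EsrrbMed and 1.01 ± 0.19 in EpiSC against EsrrbNeg. Ckb, the brain creatine kinase, was near both Mras (0.989) and Notch4 (0.983), beside Tle6 (0.989) for Mras and Ttc9b (0.988) for Notch4. Likeness was looser for Zfp365, with Chtf8 (0.940) and Plk2 (0.935), and for Mmd2, with Bag6 (0.906) and Ado (0.891), whose own differences were at most 0.21 on the log2 scale.

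Relatives and partners of the 9 genes were drawn up as 9 lists of 189 genes, of which 87 were tested. In EsrrbMed against EsrrbHi 4 of these were called (4.60%, 2 higher and 2 lower), in EsrrbNeg against EsrrbMed 13 (14.9%, 9 higher and 4 lower) and in EpiSC against EsrrbNeg 20 (23.0%, 14 higher and 6 lower). Shares over all features were 1.18%, 11.9% and 21.0%. The median change of the 87 was 0.01, 0.09 and 0.09 in the same order of comparisons.

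**Figure D4:**
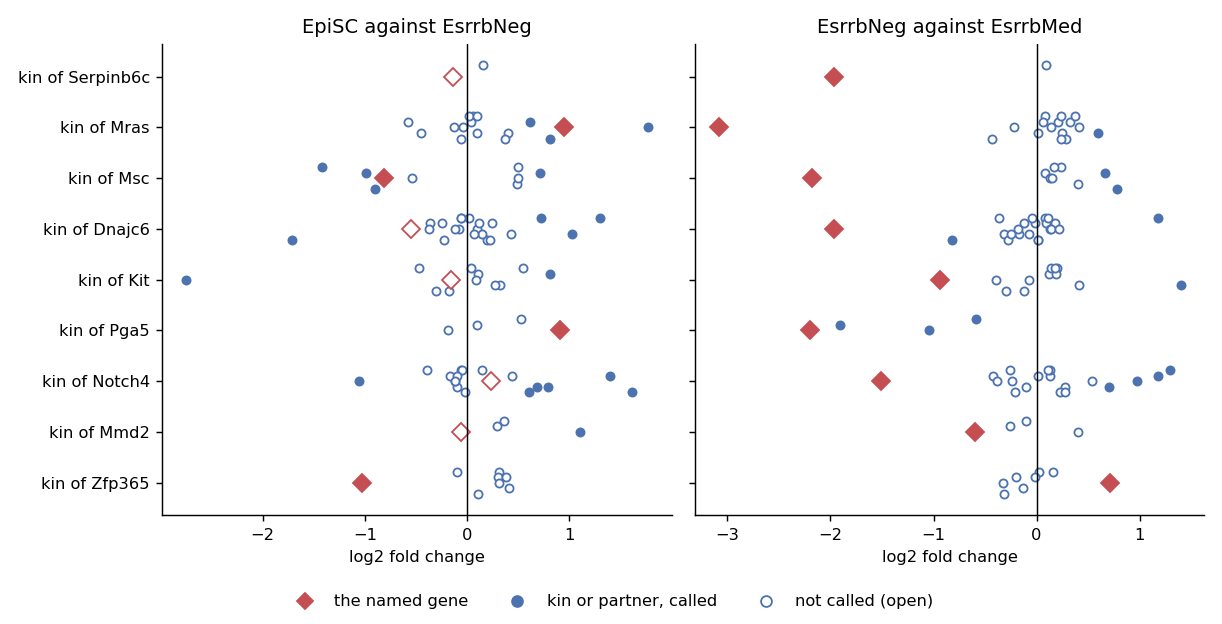
Log2 fold change (x axis) of each tested relative or partner (circles, filled where called) and of the named gene itself (diamonds), by list, in EpiSC against EsrrbNeg and EsrrbNeg against EsrrbMed. In EsrrbNeg against EsrrbMed the 3 aspartic proteases lie on the side of Pga5, in a list where the filter favoured falls. Filled circles are 4 of 18 in the Notch list, 1 of 11 in the Kit list and 2 of 8 in the bHLH list. All of these are on the higher side, while Notch4, Kit and Msc fell. Over all features 11.9% were called. The Notch circles include Aph1a, whose 2 kept probes disagree.

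Of 8 aspartic proteases, relatives of Pga5, 3 passed the filter and all 3 fell in EsrrbNeg against EsrrbMed, where 6.17% of all features were called lower. The probes given for Napsa and Pgc passed only through EsrrbMed and EsrrbHi, where they were high. The filter thus favoured falls in this list, and the count is no result about the family. The probe of Napsa, or napsin A, was detected on 0 of 3 EsrrbNeg arrays, so it passed the filter through other groups, and was at least 3.03-fold lower there (adjusted p = 2.78e-07). A further 2 kept probes gave −1.31 (adjusted p = 2.37e-05) and −0.49, the second short of 1.5-fold. The log2 fold changes were −1.05 for Pgc, or progastricsin, detected on 2 of 3 EsrrbNeg arrays (adjusted p = 4.20e-05), and −0.59 for Bace1, a beta-secretase (adjusted p = 0.00358). None of the 3 was called in EpiSC against EsrrbNeg. In the Notch list 4 of 18 (22.2%) were called higher in EsrrbNeg against EsrrbMed and none lower, while Notch4 fell. Over all features 11.9% were called. In EsrrbMed against EsrrbHi 2 of the 18 were called higher and 1 lower. The lower gene was Dtx1 (−0.84), which thus had the direction of Notch4 at that step. The 4 higher in EsrrbNeg included Hes6, a bHLH factor of the Hes family (1.30, adjusted p = 5.22e-06). Another was Aph1a, a gamma-secretase subunit (1.18, adjusted p = 0.000529), whose probe 1 of 3 EsrrbMed arrays detected. That Aph1a probe passed the filter only through EsrrbNeg and EpiSC, where it was high. The other kept probe of Aph1a gave −0.084 (adjusted p = 0.651), so its probes disagree. Of the same list 5 genes were called higher and 1 lower in EpiSC against EsrrbNeg (33.3%, against 21.0% of all features). Hes1, a classic Notch target, had log2 fold changes of 1.61 in EpiSC against EsrrbNeg (adjusted p = 0.000125) and 0.23 in EsrrbNeg against EsrrbMed (adjusted p = 0.435).

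Among 11 tested genes of the Kit list 1 was called in EsrrbNeg against EsrrbMed (9.09%, against 11.9% of all features). In EpiSC against EsrrbNeg 2 were called (18.2%, against 21.0%). Grb10, an adaptor that binds receptor kinases, rose in EsrrbNeg against EsrrbMed by 1.40 (adjusted p = 1.11e-06). In EpiSC against EsrrbNeg the adaptor Gab1 fell by 2.75 on the log2 scale (adjusted p = 4.61e-07) and Jak2 rose by 0.81 (adjusted p = 0.00397). The Jak2 probe passed the filter only through EpiSC, where it was highest, which favours a rise, and its call was lost in 6 of 23 alternative runs. Germ cell markers (9 genes), given because Kit marks germ cells, summed to 184 to 199.7 in EpiSC, 246 to 327 in EsrrbNeg, 378 to 435 in EsrrbMed and 397 to 442 in EsrrbHi. Prdm1, Mael, Tdrd1 and Sycp3 were undetected in all 4 groups, 2 of 4 tested were called lower in EsrrbNeg against EsrrbMed, and the part of the list in the Kit values was not tested.

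In the RAS list 1 of 15 tested genes was called in EsrrbNeg against EsrrbMed (6.67%) and 3 in EpiSC against EsrrbNeg (20.0%), all higher. The 3 were Rras (1.77, adjusted p = 5.49e-05), Ralb (0.81, adjusted p = 0.000432) and Rit1 (0.61, adjusted p = 0.00169), all small GTPases like Mras. The clathrin list had 21 tested genes, with 3 called higher and 1 lower in EpiSC against EsrrbNeg (19.0%). In EsrrbNeg against EsrrbMed 1 was called each way (9.52%). Over all features 11.9% were called in EsrrbNeg against EsrrbMed and 21.0% in EpiSC against EsrrbNeg. Both lists lay below these shares, so their counts are no result about the families. Sh3gl2, encoding the endocytic protein endophilin A1, was called at all 3 steps. Its log2 fold changes were −1.72 in EpiSC against EsrrbNeg (adjusted p = 3.44e-06), −0.82 in EsrrbNeg against EsrrbMed (adjusted p = 0.000253) and −0.64 in EsrrbMed against EsrrbHi (adjusted p = 0.0182). Its other 2 kept probes were lower too but short of 1.5-fold, at −0.37 and −0.11 in EpiSC against EsrrbNeg and −0.44 and −0.26 in EsrrbNeg against EsrrbMed. Its paralogue Sh3gl3 rose in EpiSC against EsrrbNeg by 1.30 (adjusted p = 0.000494). Bin1, an amphiphysin relative, rose by 0.72 in EpiSC against EsrrbNeg (adjusted p = 0.00330) and by 1.18 in EsrrbNeg against EsrrbMed (adjusted p = 3.55e-05).

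Of 8 tested bHLH and Id genes 2 rose in EsrrbNeg against EsrrbMed, Tcf15 (0.78, adjusted p = 0.000307) and Twist1 (0.66, adjusted p = 0.00252). Twist1 rose again in EpiSC against EsrrbNeg (0.71, adjusted p = 0.00284) and 3 fell: Tcf15 (−0.90, adjusted p = 0.000256) and the genes of 2 inhibitors that pair with bHLH factors, Id1 (−1.42, adjusted p = 0.00982) and Id2 (−0.99, adjusted p = 0.00417). The PAQR list had 3 tested genes, of which Mmd rose in EpiSC against EsrrbNeg by 1.10 (adjusted p = 6.32e-05). Serpinb6a was the only tested clade B serpin of 24, at 0.09 in EsrrbNeg against EsrrbMed (adjusted p = 0.474). None of the 7 tested partners of Zfp365 was called at any step. Of the 25 called values of these named relatives and partners in EsrrbNeg against EsrrbMed and EpiSC against EsrrbNeg, those of Gab1, Grb10, Hes6, Mmd, Napsa and Rras and that of Sh3gl2 in EpiSC against EsrrbNeg stayed called under every alternative run. After median scaling 12 of the 25 stayed called. Without 1 array the calls of Bace1 (−0.45 without EsrrbNeg replicate 2), Rit1 (0.53 without EsrrbMed replicate 3), Twist1 in EsrrbNeg against EsrrbMed (0.49 without EsrrbMed replicate 3) and Aph1a (0.12 in EpiSC against EsrrbNeg without EpiSC replicate 2, where the other probe stood for it) were lost.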

How the data were processed

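The authors read the arrays with beadarray and deposited linear intensity values, 1 mean over beads for each probe, with no background correction or normalization. Beside each intensity the authors deposited a detection p-value, set against negative control beads. The deposited log2 table holds the authors' values after quantile normalization and ComBat, and served only as an alternative. From the intensities, limma 3.58.1 (R 4.3.3) corrected the background (neqc, offset 16), normalized quantiles and took log2. Of 45281 probes, 14834 were kept because every array of some group detected them (detection value 0.01 or lower). Genes were represented by their kept probe with the highest mean, named through the platform annotation (32093 probes with 1 gene, 16 with several, 13172 with none).

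One limma model was fitted to all 12 arrays, with group and chip as factors and Benjamini-Hochberg adjustment over 11089 features. Same-numbered ESC arrays, by the numbers in the labels, deviated together from their group means (r = 0.238 to 0.555). Arrays of different number were not compared, and same-numbered arrays also share a chip. These values therefore cannot show that the numbers mark paired samples. The number of arrays limits the precision. The 9 genes and all lists were chosen with earlier results of these data known. By rule the named genes were the 9, Esrrb, the 2 most alike of each of the 9, and up to 3 called genes per list. Marker genes, Serpinb6a, Twist1 and the genes beside the 9 in the ranking were named after their values were seen. Sequences came from RefSeq. The figures were drawn with matplotlib 3.10.9.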

Additional observations from a re-analysis of the deposited data

How the results depend on the processing

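The called values of the 9 genes in EsrrbNeg against EsrrbMed and EpiSC against EsrrbNeg kept their direction under every alternative run. Their EsrrbMed against EsrrbHi differences did so too, but these chose the genes on the same arrays, so that is a description only. The members called in EsrrbNeg against EsrrbMed ranged between 6 and 9 of 9. In EpiSC against EsrrbNeg 4 members were called, against 0 after median scaling and 1 each with quantiles without background correction, with an offset of 50 and in the authors' log2 table, and 3 on the arrays of the 2 groups alone. Leaving out 1 array at a time gave 7 to 9 members in the first comparison and 4 to 5 in the second. The features called in EsrrbNeg against EsrrbMed were 1319 (48.1% higher), against 379 (37.5% higher) after median scaling, 430 without background correction, 655 with an offset of 50, 424 (37.5% higher) in the log2 table and 689 on chip 2 alone. In EpiSC against EsrrbNeg they were 2332 (57.4% higher), against 510 (75.5% higher), 837, 1218, 881 and 1357 under the same settings in that order. With 1 array left out they were 1254 to 1431 and 2219 to 2968. The cause of these shifts was not tested. On chip 2 each ESC fraction had 1 array, which was assumed to vary like the EpiSC arrays.

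With the replicate block in place of chip, 1317 features and 9 members were called in EsrrbNeg against EsrrbMed, and blocking by replicate number changed no member's call. For the 25 called values of named relatives and partners the same alternatives were added after the data were seen: 74 of 595 runs lost the call, and 4, all Aph1a in EsrrbNeg against EsrrbMed, changed sign because another probe became its brightest. That value was −0.084 with the replicate block and on the arrays of both groups alone, −0.0081 on chip 1 alone, and −0.084 to 1.28 with 1 array left out. EpiSC arrays have no such pairs. Signal near background limits Serpinb6c, Mras and Pga5 in EsrrbNeg and Mmd2 throughout, and changes of dim genes shrink with a larger offset. Groups of 3 are too small to look for outlying arrays.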
